A study of Schizosaccharomyces pombe with 2 samples.

Results

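The nuclear genes of oxidative phosphorylation were followed in asynchronous cultures of *sgo2*Δ and wt cells of *Schizosaccharomyces pombe*, the fission yeast. They were taken by name: every probe set that names 1 gene only and whose symbol is *qcr*, *cox*, *atp* or *sdh* followed by digits, or *rip1*, *cyt1* or *cyc1*, with the genes encoded in mitochondria left out. This gave 42 genes, each with 1 probe set, of 2899 genes that could be followed by name, and all 42 lie on the nuclear chromosomes. The *sgo2*Δ strain (JP2247) lacks *sgo2*, which encodes the shugoshin Sgo2, a protein of centromeres and subtelomeres, and the wt strain (JK107) carries the gene. Both strains were of the *h*- mating type and were grown at 32 °C in the rich liquid medium YES, with no other treatment. Poly(A)-containing RNA (0.3 μg per strain) was labelled and hybridized to 1 GeneChip Yeast Genome 2.0 array per strain. A difference between the arrays therefore has no replicate check and no test, and it includes any difference between the strains or cultures other than the deletion. A signal from a whole culture also cannot tell less RNA per cell from fewer cells that make it.

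Oxidative phosphorylation makes ATP at the inner mitochondrial membrane. Electrons from NADH, succinate and other donors enter a pool of coenzyme Q, pass through complex III to the soluble carrier cytochrome c, and reach oxygen at complex IV. *S. pombe* lacks the proton-pumping complex I found in animals and has simpler NADH dehydrogenases in its place. Complex II, the succinate dehydrogenase, also works in the citric acid cycle, and complex V, the ATP synthase, turns the proton gradient into ATP. Complexes III, IV and V are built from subunits of both nuclear and mitochondrial genes, and dedicated factors assemble them. Fission yeast ferments glucose readily but keeps respiratory genes active in rich medium.

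The whole table showed the following. The targeted gene *sgo2* gave 2.81 in *sgo2*Δ and 581.5 in wt. Taken against 100, the floor set for signals here, that is at least 5.82-fold lower. The brightest of 17 tag probe sets, which have no yeast target, gave 43.9 in *sgo2*Δ and 47.7 in wt. Of the 2899 genes, 2796 reached the floor on at least 1 array, and their median log2 ratio (*sgo2*Δ over wt) was 0.13, with 84.7% of them above 0. Ratios are therefore read against this median and not against 0. Median ratios of 0.51 (12 probe sets for poly(A) control RNAs), 0.54 (6 for 18S and 28S rRNA) and 0.10 (9 for hybridization controls) were measured on the same log2 scale, and their part in the ratios below was not tested. No floor was applied to these controls, and the dimmest poly(A) control had 22.7 in wt, less than the brightest tag probe set.

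All 42 genes reached the floor, with signals between 667.9 and 8045 in *sgo2*Δ and between 555.6 and 7902 in wt. None of the 42 was at least 2-fold higher in *sgo2*Δ, where 0.536% of the 2796 genes were, and none was at least 2-fold lower, where 0.0358% were. At a smaller threshold, a log2 ratio of 0.32 in size, 1 of the 42 (2.38%) was higher, beside 6.51% of all genes, and 0 were lower, beside 0.572%. The 42 log2 ratios had a median of 0.12 and ran from -0.14 to 0.38, and the middle of their range (0.07 to 0.18, between quartiles) lay inside that of all genes (0.05 to 0.22). Of the 42, 20 lay above the median of all genes and 22 below it. The sign of their small distance from that median depended on the scaling, with 25 of 42 above it after quantile normalization. Each member's pair of signals is drawn in the plot of signals by gene.

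**Figure D1:**
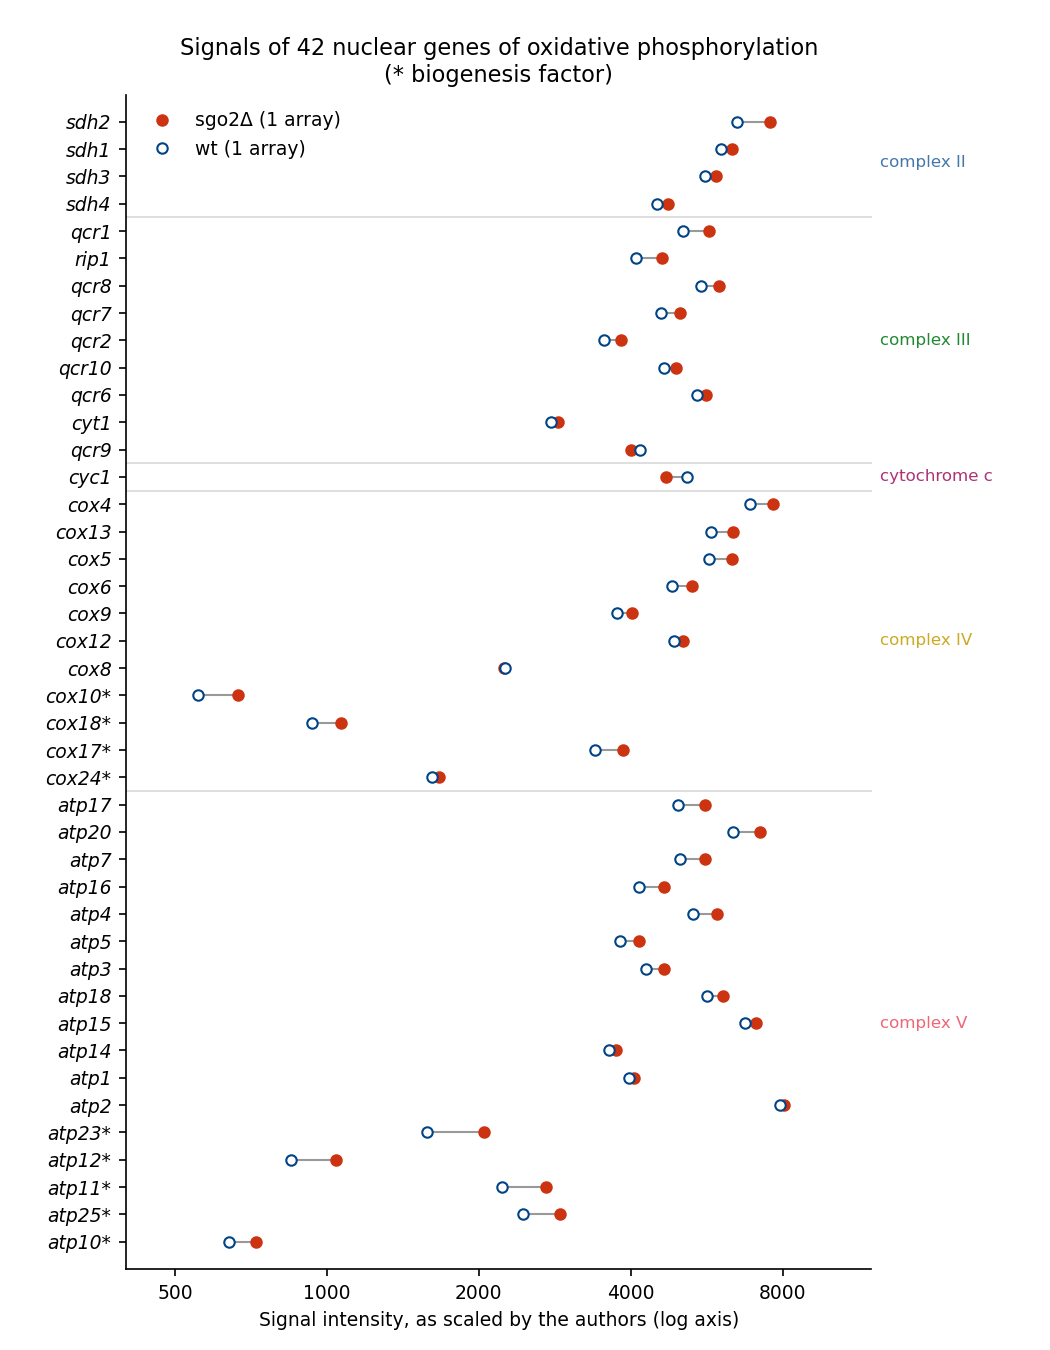
Signal intensity of the 42 nuclear genes of oxidative phosphorylation (log axis) in *sgo2*Δ (filled) and wt (open), 1 array each, sorted by complex, with biogenesis factors last, and by log2 ratio. The filled point lies to the right of the open one for 39 of 42 genes in the signals as deposited (20 of 42 have a positive log2 ratio after centring on all genes), and the exceptions are *qcr9*, *cyc1* and *cox8*.

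Complex II had 4 genes, with a median log2 ratio of 0.07. The iron-sulfur subunit gene *sdh2* stood apart from the other 3, with a signal of 7569 in *sgo2*Δ and 6510 in wt (log2 ratio 0.22). This was the largest ratio among all 33 genes of subunits and cytochrome c. The flavoprotein gene *sdh1* had 6353 in *sgo2*Δ and 6042 in wt. The membrane anchor genes *sdh3* (5893 and 5604) and *sdh4* (4745 and 4515) completed the complex. These 3 genes shared a log2 ratio of 0.07 and lay below the median of all genes. The gene table names *sdh4* as *tim18*, with *sdh4* as a synonym.

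Complex III had 9 genes, with a median log2 ratio of 0.11, and 7 of them lay below the median of all genes. The 2 highest were *qcr1*, which encodes a core protein (signal 5729 in *sgo2*Δ and 5070 in wt, log2 ratio 0.18), and *rip1*, which encodes the Rieske iron-sulfur protein (4613 and 4104, 0.17). The second core protein gene, *qcr2*, had 3829 in *sgo2*Δ and 3540 in wt (0.11). The catalytic subunits did not share 1 ratio, as *cyt1*, the gene of cytochrome c1, had 2875 in *sgo2*Δ and 2779 in wt (0.05). Lowest was the small subunit gene *qcr9*, with 4009 in *sgo2*Δ and 4181 in wt (-0.06). The remaining genes *qcr6*, *qcr7*, *qcr8* and *qcr10* lay between 0.06 and 0.12.

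Cytochrome c carries electrons from complex III to complex IV, and its gene *cyc1* had the lowest ratio of all 42. Its signal was 4691 in *sgo2*Δ and 5166 in wt (log2 ratio -0.14), and 3.83% of all 2796 genes had a lower ratio. None of the 200 other genes nearest to *cyc1* in signal had a lower ratio, and the median of those genes was 0.12. With 1 array per strain this is a single measurement from 1 probe set.

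Complex IV, the cytochrome c oxidase, had 11 genes, 7 of them for subunits. The median log2 ratio was 0.15 over all 11 genes and 0.13 over the 7 subunit genes. Of the subunit genes, *cox4* (signal 7672 in *sgo2*Δ and 6909 in wt), *cox13* (6388 and 5759) and *cox5* (6342 and 5728) had the same log2 ratio of 0.15. These 3, together with *cox6* (0.13), lay just above the median of all genes. Lower ratios were measured for *cox9* (0.10) and *cox12* (0.06). The subunit gene *cox8* had 2245 in *sgo2*Δ and 2254 in wt (-0.0056), and only 6 of the 200 other genes of like signal had a lower ratio. The same count of 6 was found for *qcr9* of complex III.

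The other 4 genes named for complex IV do not encode parts of the enzyme, and 3 of them act in its biogenesis. *cox10*, which encodes the enzyme that makes haem O on the way to the haem A of the oxidase, had 667.9 in *sgo2*Δ and 555.6 in wt (0.27). *cox18*, which encodes a factor for membrane insertion of the mitochondrially encoded Cox2 (as known in *Saccharomyces cerevisiae*), had 1065 in *sgo2*Δ and 934.2 in wt (0.19). The copper chaperone gene *cox17* had 3862 in *sgo2*Δ and 3394 in wt (0.19). These 3 lay above the median of all genes, whereas *cox24* lay below it (1665 and 1615, 0.04). The product of *cox24* is known as a mitochondrial ribosome protein, and the gene is counted with the biogenesis factors by its name only. One further probe set, which *cox1101* and *cox1102* share and which is not among the 42, had a log2 ratio of 0.14 (1555 in *sgo2*Δ and 1414 in wt).

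**Figure D2:**
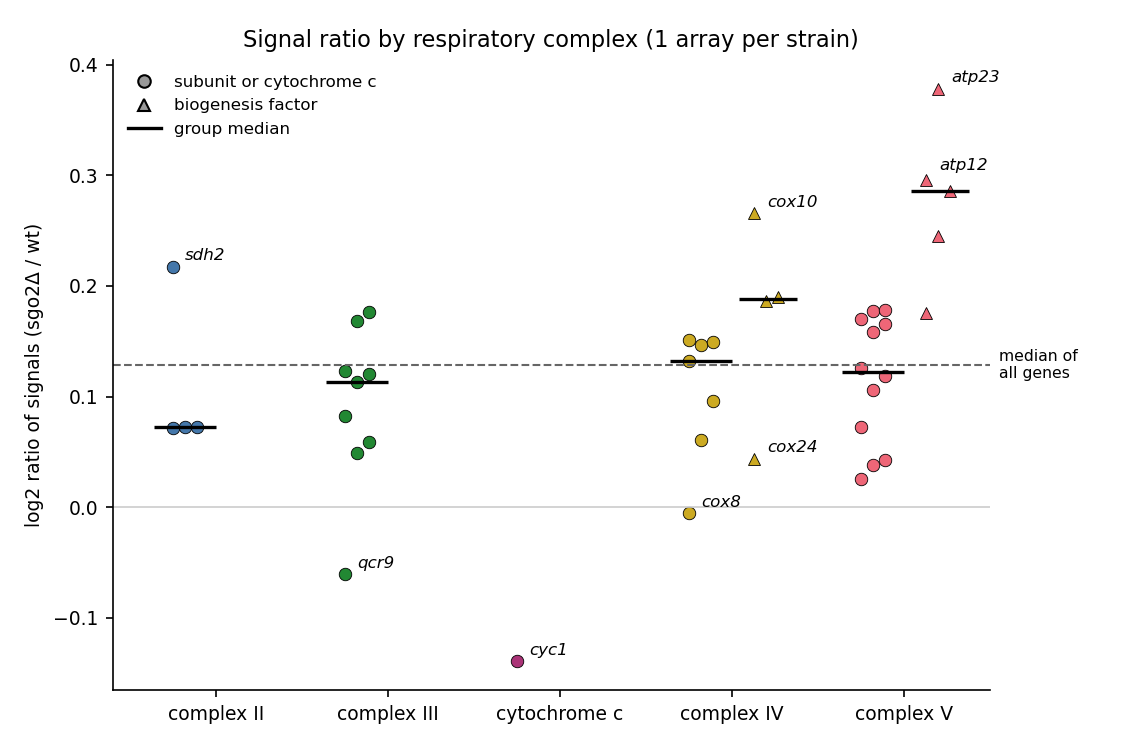
log2 ratio of signals (*sgo2*Δ over wt) of each gene by respiratory complex, with circles for subunits and cytochrome c, triangles for biogenesis factors, bars for group medians and a dashed line for the median of all genes (0.13). Subunit genes lie between -0.06 and 0.22 apart from *cyc1* at -0.14, and the 5 biogenesis factors of complex V lie between 0.18 and 0.38.

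Complex V had 17 genes, 12 of them for subunits, and all 17 had ratios between 0.03 and 0.38 with a median of 0.17. The 12 subunit genes alone had a median of 0.12, with 5 above the median of all genes and 7 below it. The catalytic F1 head was represented by 5 genes, with a median of 0.07. Its α subunit gene *atp1* (signal 4069 in *sgo2*Δ and 3963 in wt, log2 ratio 0.04) and its β subunit gene *atp2* (8045 and 7902, 0.03) were the 2 lowest of the complex. The ε subunit gene *atp15* (0.07) and the γ subunit gene *atp3* (0.12) followed. Only the δ subunit gene *atp16* lay above the median of all genes within F1 (4665 in *sgo2*Δ and 4160 in wt, 0.17).

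The 7 genes of the peripheral stalk and the membrane-embedded Fo part had a median log2 ratio of 0.16. The highest were *atp17* (signal 5625 in *sgo2*Δ and 4970 in wt) and *atp20* (7224 and 6386), both with a log2 ratio of 0.18, and *atp7* (5627 and 5000, 0.17) came close. The stalk gene *atp4* had 5926 in *sgo2*Δ and 5309 in wt (0.16). The gene of the oligomycin sensitivity protein, *atp5* (0.13), and *atp18* (0.11) lay just below the median of all genes, and *atp14* was the lowest of this part (3734 in *sgo2*Δ and 3626 in wt, 0.04). The ranges of F1 (0.03 to 0.17) and of stalk and Fo (0.04 to 0.18) overlapped almost entirely.

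The biogenesis factors of complex V had the highest ratios, with a median of 0.29 over 5 genes. *atp23*, which encodes a metalloprotease that matures the Fo subunit Atp6 in *S. cerevisiae*, had 2051 in *sgo2*Δ and 1578 in wt, 1.30-fold higher (log2 ratio 0.38), and was the 1 gene of the 42 past a log2 ratio of 0.32. The F1 chaperone genes *atp12* (1042 in *sgo2*Δ and 848.8 in wt, 0.30) and *atp11* (2712 and 2225, 0.29), whose products bind the α and β subunits in *S. cerevisiae*, had almost the same ratio. *atp25*, a factor for the Fo ring subunit Atp9 in *S. cerevisiae*, had 2903 in *sgo2*Δ and 2450 in wt (0.25). *atp10*, a factor for Atp6 in *S. cerevisiae*, had 722.3 in *sgo2*Δ and 639.7 in wt (0.18). Of these 5 genes, 4 lay above every subunit gene of complex V, as did 35.0% of all 2796 genes (3 of the 5 after quantile normalization).

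Across the complexes, the log2 ratios of the 9 biogenesis factors centred on 0.25 (median), and those of the 33 genes of subunits and cytochrome c on 0.11. Without *cox24* the median of the remaining 8 was 0.26. Of the 9, 8 lay above the median of all genes (*cox24* did not), whereas 12 of the 33 did (17 of 33 after quantile normalization). The count of biogenesis factors above the highest subunit gene, *sdh2*, was 5 of 9 as deposited (24.6% of all 2796 genes lay above it), 3 of 9 relative to genes of like signal and 2 of 9 after quantile normalization. No test stands behind this comparison, since genes of 1 array pair are not replicates of one another.

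The groups differed in signal as well as in ratio. Signals of biogenesis factors ran up to 3862 in *sgo2*Δ and 3394 in wt, and only 2 of the 33 other genes, *cyt1* and *cox8*, had a lower mean signal than the brightest of them. Over all other genes, the median log2 ratio varied with signal, from 0.16 at a mean signal of 2000 to 4000 (538 genes) to 0.07 above 4000 (548 genes, of which 119 encode cytosolic ribosomal proteins with a median of 0.01). The 27 members above 4000, all subunits or cytochrome c, had a median of 0.12. The other genes of this class had 0.07 with the ribosomal protein genes and 0.09 without them. This class has no upper limit, so its other genes are not matched in signal to the 27 members. Between 2000 and 4000, the 3 biogenesis factors had a median of 0.25 and the 6 subunit genes a median of 0.07, beside 0.16 for all other genes. Relative to the 200 other genes nearest in signal, biogenesis factors had a median of 0.08 and the 33 other members -0.0021.

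**Figure D3:**
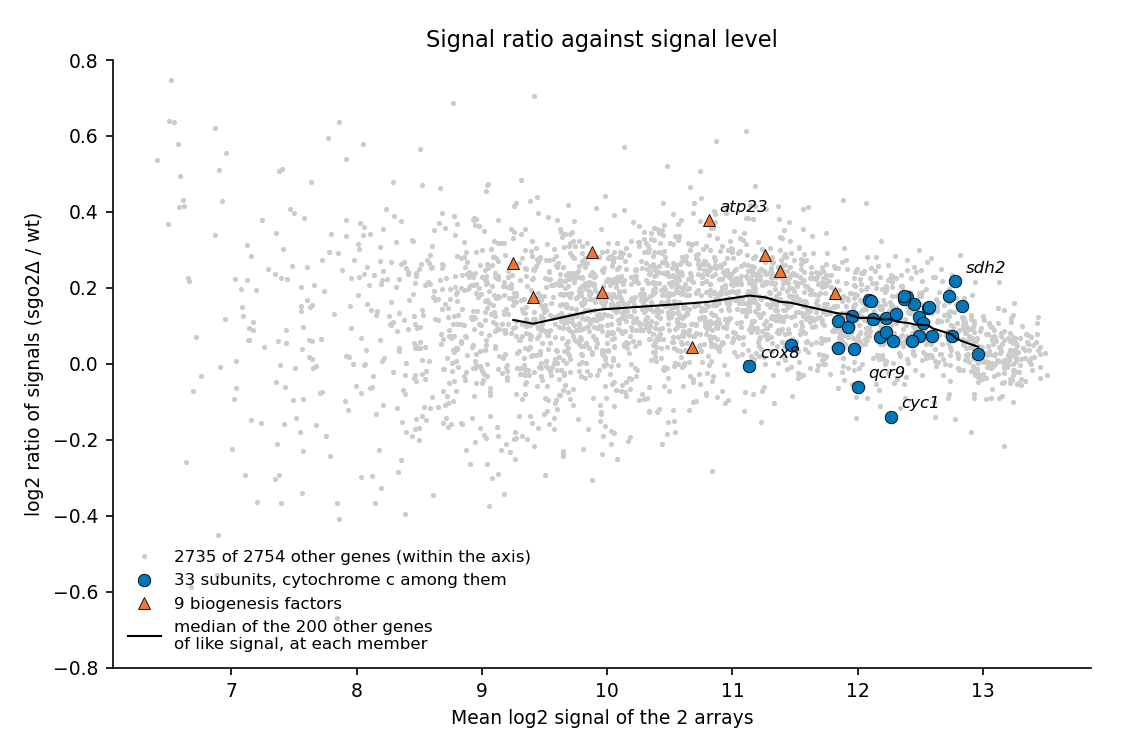
log2 ratio of signals (*sgo2*Δ over wt) against the mean log2 signal of the 2 arrays for biogenesis factors (triangles), subunits with cytochrome c (circles) and 2735 of the 2754 other genes (grey), with a line for the median of the 200 other genes nearest in signal. Subunit genes crowd at the bright end. Of the 33 subunits with cytochrome c, 15 lie above the line, and *cyc1*, *qcr9* and *cox8* lie furthest below it. Of the 9 biogenesis factors, 8 lie above it.

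By gene order, the 42 genes were spread over the 3 chromosomes. Distance from an end was counted in protein-coding genes and not in kb. Chromosome 1 held 15 of them (median log2 ratio 0.13), chromosome 2 held 15 (0.16) and chromosome 3 held 12 (0.12), beside medians of 0.13, 0.13 and 0.12 for all genes of the same chromosomes. The gene nearest to an end in each case was *atp1* on chromosome 1, with 119 protein-coding genes between it and the end of the sequence, *qcr6* on chromosome 2 (63 genes) and *qcr2* on chromosome 3 (27 genes). On chromosome 3, *sdh3* (44 genes) and *atp23* (49 genes) came next. The 8 pairs of successive members with at most 10 genes between them differed by a median of 0.05 in log2 ratio. Pairs with more genes between them were not compared, so likeness of neighbours cannot be read from this value. Of the 8 pairs, the closest ratios were those of *atp14* and *cyt1* (0.04 and 0.05, with 7 genes between them). The furthest apart were those of *sdh3* and *atp23* (0.07 and 0.38, with 4 genes between them). *qcr1* (0.18) and *sdh4* (0.07) lie side by side. The array files name no genome build, so the order is that of the assembly ASM294v3 and positions are not given.

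Other genes that serve respiration were set beside the 42, from lists by function. Coenzyme Q synthesis was represented by 11 of 14 listed genes, with a median log2 ratio of 0.18, and 9 of them lay above the median of all genes. The highest was the methyltransferase gene *coq3* (signal 3127 in *sgo2*Δ and 2555 in wt, log2 ratio 0.29) and the lowest *dps1*, which encodes a subunit of decaprenyl diphosphate synthase (1007 and 987.6, 0.03). Further factors for assembly and expression of the respiratory chain (16 of 34 listed) had a median of 0.16, with 10 above the median of all genes. Here *ppr4*, whose product acts on translation of *cox1* in mitochondria, was highest (391.7 in *sgo2*Δ and 313.1 in wt, 0.32), and *ppr6* was lowest (1416 and 1454, -0.04). *mss51*, which acts on *cox1* translation in *S. cerevisiae*, lay on the other side of the median (582.5 in *sgo2*Δ and 596.6 in wt, -0.03).

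Haem synthesis, which supplies the cytochromes, had a median log2 ratio of 0.03 over all 7 listed genes, with 5 of 7 below the median of all genes. *hem14*, for protoporphyrinogen oxidase, was highest (945.0 in *sgo2*Δ and 833.4 in wt, 0.18) and *hem15*, for ferrochelatase, lowest (676.3 and 686.9, -0.02). The list of genes for electron entry to coenzyme Q held 8 genes, of which 3 could be followed. No gene of the simpler NADH dehydrogenases was among the 3. The dehydrogenase genes *gut2* and *ura3* both lay below the median of all genes. The mitochondrial glycerol-3-phosphate dehydrogenase gene *gut2* had 2134 in *sgo2*Δ and 2249 in wt (-0.08), whereas *ura3*, for dihydroorotate dehydrogenase, had 5874 in *sgo2*Δ and 5472 in wt (0.10). The same list held *dld1* (0.06), which in *S. pombe* encodes the NADH-producing dihydrolipoamide dehydrogenase and no donor to coenzyme Q. The list had a median of 0.06 with it (3 genes) and 0.01 without it (2 genes). The genes of the Php complex, which binds CCAAT boxes and acts on respiratory genes, ran from 0.02 (*php2*, 242.6 in *sgo2*Δ and 239.0 in wt) to 0.15 (*php4*, 1367 and 1230). The ADP/ATP carrier gene *anc1* had 6107 in *sgo2*Δ and 6010 in wt (0.02). None of the genes on these lists reached 2-fold in either direction, beside 0.536% (higher) and 0.0358% (lower) of all 2796 genes. With shares this small, the absence does not set the lists apart.

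**Figure D4:**
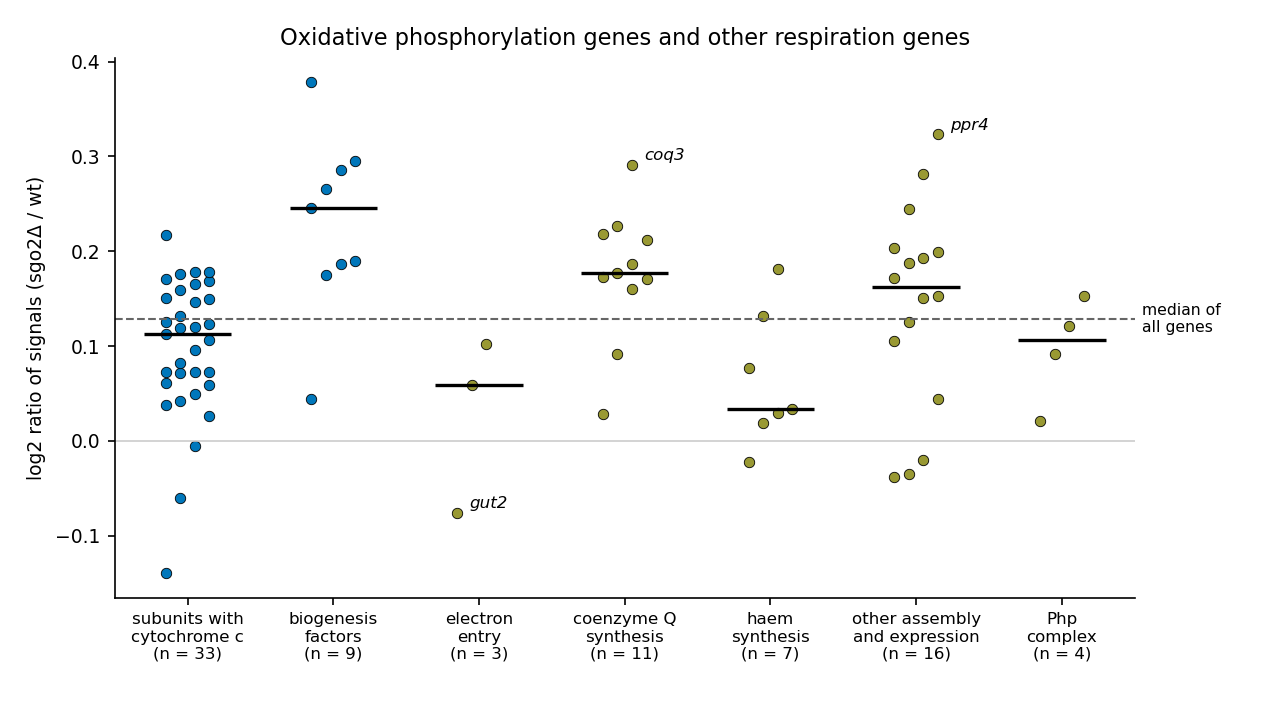
log2 ratio of signals (*sgo2*Δ over wt) of each gene in 7 groups, with bars for medians and a dashed line for the median of all genes (0.13). Biogenesis factors (0.25), coenzyme Q synthesis (0.18) and other assembly and expression factors (0.16) have medians above the line, and subunits with cytochrome c (0.11), Php genes (0.11), electron entry (0.06 with *dld1*, which is no donor to coenzyme Q, and 0.01 without it) and haem synthesis (0.03) have medians below it, although subunits with cytochrome c lie above it after quantile normalization.

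Some genes of the same complexes were not reached by the rule on names. *tim11*, which encodes a further ATP synthase subunit, had a log2 ratio of 0.07 (4461 in *sgo2*Δ and 4240 in wt), and *etp1*, which carries the synonym *cox15*, had 0.11 (2407 and 2225). The genes *cox7*, *cox14*, *cox16*, *cox19*, *cox20*, *sdh6*, *sdh7*, *sdh8* and *atp19*, and the genes encoded in mitochondria, were not followed here. Among the probe sets listed at 0 on both arrays, 50 had symbols of the same pattern, in upper or lower case. Their species was not checked.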

How the data were processed

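The deposited table holds 1 linear signal intensity per probe set and array. Per the submitters' processing notes and the methods, the authors used GCOS 1.4 with its default scaling and a mask for *S. cerevisiae*, and 5748 of 10928 probe sets are listed at 0 on both arrays. The target of the scaling is not given in the sources used here. For the poly(A) step, the labels describe Trizol and oligo(dT), and the methods the PolyATtract system.

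Genes were assigned to probe sets from the platform annotation and the RefSeq gene table of ASM294v3 (2914 by gene identifier, 3 by symbol). log2 signals were averaged per gene, and wt was subtracted from *sgo2*Δ. Genes needed a signal of 100 on at least 1 array. With 1 array per strain, no p-value was computed, and the number of arrays limits precision. Only the rule for calling a gene 2-fold higher or lower was tested on simulated data. Alternatives were another scaling, pseudocount, floor, probe set choice and threshold. Described in full are the 2 highest and 2 lowest ratios of each complex, all of complex II, members past a log2 ratio of 0.32, the extremes of each other list and *sgo2*; other genes named were picked after values were seen. *dld1* was kept on its list as written. Members and lists were chosen with earlier results of these data known. *cox24* was assigned, and *tim11* and *etp1* added, after values were seen. A planned search for CCAAT boxes was not made, as no promoter sequences were used here. Scripts ran in Python 3.11.15, with matplotlib 3.10.9 for plots and pandas 2.3.3, scipy 1.17.1 and numpy 2.4.6 for values.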

Additional observations from a re-analysis of the deposited data

How the results depend on the processing

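No paired analysis was possible because the design has 1 array of each strain, which also leaves no replicate to omit. Signal over background limits the 42 genes little, since the dimmest had 667.9 in *sgo2*Δ and 555.6 in wt. Changing the floor to 50, 200 or none, or taking the brightest probe set of each gene, shifted the medians by 0. For the 42 genes this was fixed beforehand, as each has 1 probe set and signals above 200. Keeping subunits and cytochrome c only shifted them by at most 0.0432 (complex V), leaving out *sdh4* and *cox24* (chosen after seeing the data) by at most 0.0102 (biogenesis factors) and a pseudocount of 100 by at most 0.0171 (biogenesis factors), with complex II at 0.0713. Without *dld1* (chosen after seeing the data) the electron entry list had 0.013. At a log2 threshold of 0.32, 1 gene was higher, against 0 at 2-fold. By their construction, centring on all genes and quantile normalization remove the common shift of 0.13, and this moved most medians. After centring, the 42 genes had a median of -0.0039, complex II -0.056, III -0.015, IV 0.018, V 0.037, cytochrome c -0.27, biogenesis factors 0.12, subunits -0.015, *anc1* -0.11, Php genes -0.022, coenzyme Q 0.048, haem -0.095, electron entry -0.069 and other assembly and expression factors 0.034. With quantile normalization (all genes -0.018) these values were 0.0060, -0.029, -0.044, 0.028, 0.034, -0.28, 0.073, -0.012, -0.073, -0.066, 0.026, -0.082, -0.038 and -0.0036, in the same order. Relative to 200 genes of like signal, the 42 genes had a median of 0.012, complex II -0.026, III -0.019, IV 0.045, V 0.055, cytochrome c -0.26, biogenesis factors 0.082, subunits -0.0021, *anc1* -0.078, Php genes -0.045, coenzyme Q 0.041, haem -0.072, electron entry -0.043 and other assembly and expression factors 0.0095. With ribosomal protein genes left out of those 200 (chosen after seeing the data), the first 3 were 0.012, -0.028 and -0.019, complex IV 0.042, V 0.049, cytochrome c -0.26, biogenesis factors 0.082 and subunits -0.0020. Of the ratios of single genes under the 5 alternatives of scaling, pseudocount and probe set choice, 98 lay no further from the main value than other genes of like signal scatter. Among those 98, 42 came from the choice of probe set, where a shift of 0 was fixed beforehand, and 42 from the pseudocount. The other 112 ratios lay further off, all of them under the 3 scalings that remove the common shift.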

Other observations

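Other gene groups of mitochondria, listed after the values of the respiratory genes were known, were read in the same way. The mitochondrial ribosome was represented by 39 genes with names of the *mrp* type, with log2 ratios (*sgo2*Δ over wt) of median 0.18, and 27 of them lay above the median of all genes (0.13). The highest was *mrp17* (signal 622.9 in *sgo2*Δ and 448.3 in wt, log2 ratio 0.47) and the lowest *mrp51* (1217 and 1298, -0.09). Relative to the 200 other genes nearest in signal, the 39 genes had a median of 0.01. The citric acid cycle was represented by 7 genes besides those of complex II, with a median log2 ratio of 0.14, from *idp1* (4813 in *sgo2*Δ and 4895 in wt, -0.02) to *idh1* (4472 and 3909, 0.19). Relative to genes of like signal their median was -0.04. None of these genes was past 2-fold in either direction, beside 0.536% (higher) and 0.0358% (lower) of all 2796 genes. With shares this small, the absence does not set these groups apart.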
